A study of Mus musculus with 2 samples.

Results

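The genes described here encode the nuclear part of the mitochondrial respiratory chain and of ATP synthase. They were chosen by name, without use of measured differences. Every symbol of the feature list that begins with Nduf, Uqcr, Cox4i, Cox5, Cox6, Cox7, Cox8 or Atp5 was taken, together with Sdha, Sdhb, Sdhc, Sdhd and Cycs, if it had at least 50 unique molecular identifiers (UMIs, the tags that count single transcript molecules) over both libraries. Of 94 symbols matched, 87 met the minimum, among 31053 genes listed and 18453 with a UMI. They comprise 37 genes of complex I, 8 complex I assembly factors (Ndufaf), 4 of complex II, 8 of complex III, the cytochrome c gene Cycs, 13 of complex IV and 16 of complex V. The 7 symbols left out were Cox7a1 with 28 UMIs, Cox4i2 with 15, Ndufa4l2 with 13, and Cox7b2, Cox8b, Cox8c and a second Atp5o entry with 0 each. Just inside the minimum stood Atp5s with 83 UMIs, Ndufaf5 with 88 and Cox6b2 with 113. Genes grouped here by symbol need not match present assignments: the product of Ndufa4, named for complex I, is now known as a subunit of complex IV.

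The cells came from pancreatic islets of male C57BL/6J mice on chow diet, with 6 to 8 mice pooled per library. Live cells without surface Epcam, an epithelial protein, and with CD45, a marker of all leukocytes, were sorted and counted from transcript 3' ends in droplets. Each time label, 1 week or 12 weeks, had 1 library, and no other genotype, treatment or diet entered the comparisons here. The sample titles call these libraries rep1 and rep2 of chow-fed islets and carry no time, so ratios between 1 and 12 weeks rest on the time label alone and compare 2 single libraries. The labels give neither the age of the mice nor the starting point of the weeks. The 1-week library held 1551 barcodes and 12858754 UMIs and the 12-week library 1867 and 12448628, where 3000 to 4000 cells per condition were targeted. After filtering, 1339 and 1751 cells remained, with medians of 7396 and 6827 UMIs. The libraries shared 3 barcodes, and Scrublet called 1 doublet in each, so mixed droplets largely stayed in the data.

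The respiratory chain passes electrons from NADH (complex I) and succinate (complex II) through complex III and cytochrome c to oxygen at complex IV, and complex V uses the proton gradient so formed to make ATP. A small set of subunits of complexes I, III, IV and V is encoded in mitochondrial DNA, the mt- genes, and the remainder, with all of complex II, comes from nuclear genes. In macrophages the balance between oxidative phosphorylation and glycolysis is known to shift with activation, and complex I and III are known sources of mitochondrial oxidants.

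Macrophages were defined as cells with at least 5 UMIs over C1qa, C1qb and C1qc, the complement genes that mark resident macrophages. There were 1242 at 1 week and 1619 at 12 weeks, of which 25 and 18 lay near the minimum, at 5 to 9 UMIs. The classes set beside them were cells with fewer C1q UMIs in clusters named from marker genes: 26 and 29 B-like cells, 10 and 40 T-like cells, and 17 and 33 dendritic-like cells at 1 and 12 weeks. The T-like profile at 1 week held only 30264 UMIs. All 9 macrophage markers were present in the macrophages, at a sum of 11615 and 10602.5 CPM (UMIs per 1000000 UMIs of the profile), against 33.0 to 484 CPM in the other profiles, where up to 8 of the 9 were at 0. These markers include C1qa, C1qb and C1qc, which made up 9985 and 8957 CPM of the macrophage sums. Most of this gap was therefore set by the C1q rule itself. Islet hormone transcripts (Ins1, Ins2, Iapp and Gcg) stood at 19483 and 5712 CPM in macrophages and at 559 to 1241 CPM in the other classes. At 2000 UMIs per cell, where each cell counts equally, they stood at 6075 and 2447 CPM in macrophages and 471 to 1673 elsewhere. Of the 39 cells in the endocrine-like cluster, 17.9% met the C1q minimum and count as macrophages here. The part of hormone transcripts in the class differences was not tested, and the time ratios are also given without hormone UMIs.

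Macrophages devoted a smaller share of their transcripts to the nuclear chain genes than the B-, T- and dendritic-like cells of the same islets did. The summed level of the 87 genes was 13126 CPM at 1 week (95% exact Poisson interval 13060 to 13193) and 10817 at 12 weeks (10756 to 10877) in macrophages. B-like cells stood at 14684 and 16593 CPM, T-like cells at 20486 and 18099, and dendritic-like cells at 18169 and 16778. Both macrophage sums lay under all 6 other sums, and the smallest gap was to the B-like cells at 1 week. These intervals cover counting error only, and no test was made of a sum over chosen genes. CPM is a share of a cell's RNA, so abundant transcripts of other kinds bear on it: cytosolic ribosomal protein genes took 196781 and 168062 CPM in macrophages and 265602 to 337976 CPM in the other classes.

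The order held at equal depth. With every cell thinned to 2000 UMIs, which left out 55 and 28 macrophages and 0 to 6 cells of each other profile, the median macrophage held 24 nuclear chain UMIs at 1 week and 21 at 12 weeks. The medians were 32.5 and 33.5 in B-like cells, 39 and 34.5 in T-like cells, and 36 and 34 in dendritic-like cells. The middle of the macrophages, from the lower to the upper quartile, ran from 19 to 30 UMIs at 1 week and from 16 to 26 at 12 weeks. The lower quartiles of the others at 1 and 12 weeks were 26.5 and 28.5 UMIs in B-like, 36.75 and 31.25 in T-like, and 31 and 28 in dendritic-like cells, so the middle ranges overlapped for B-like cells at 1 week.

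**Figure D1:**
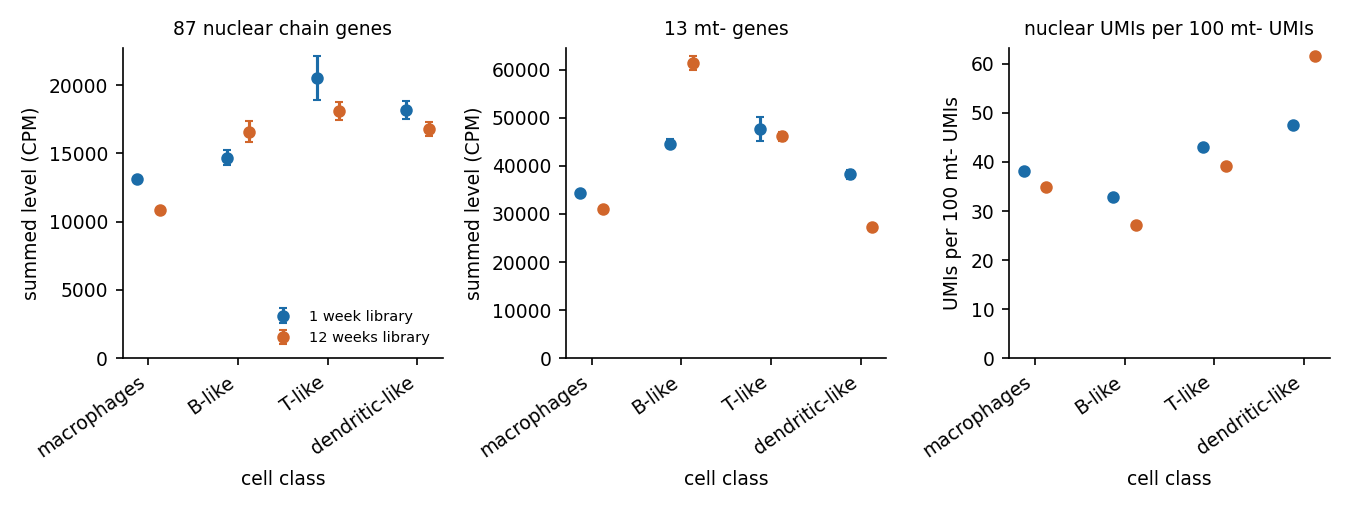
Summed level in CPM of the 87 nuclear chain genes (left) and the 13 mt- genes (centre), and nuclear chain UMIs per 100 mt- UMIs (right), for each cell class (horizontal axis) in the 1-week (blue) and 12-week (orange) library. Points are class sums, bars 95% exact Poisson intervals; the macrophage points lie lowest on the left, while dendritic-like cells at 12 weeks lie lowest in the centre and highest on the right.

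By complex, the macrophage sums at 1 and 12 weeks were 3548 and 2943 CPM for complex I, where the other profiles ranged from 4503 to 6212. For complex V they were 3877 and 3124 CPM, against 4241 to 5749. Complex IV was closer, at 3862 and 3250 CPM in macrophages and 3771 in B-like cells at 1 week, the lowest of the others. Complex II, which has no mitochondrially encoded subunit, showed no such order: its 204 and 168 CPM in macrophages lay inside the range of 151 to 397 CPM elsewhere. The highest single levels in macrophages, as means of the libraries, were those of Cox4i1 with 623 ± 72.3 CPM (SD, n = 2 libraries), a nuclear-encoded accessory subunit of cytochrome c oxidase, and Atp5e with 549 ± 81.0, the epsilon subunit of ATP synthase. Uqcrh led complex III with 433 ± 71.3 CPM, Ndufa2 complex I with 270.4 ± 26.1, Sdhb complex II with 63.6 ± 7.33 and Ndufaf8 the assembly factors with 44.0. Since UMIs count 3' ends, these levels are not scaled by transcript length.

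Single genes were compared as sums per class and library with edgeR's quasi-likelihood test. Macrophages were set against an equally weighted mean of the B-, T- and dendritic-like profiles, with a term for the library, and p-values were adjusted over 3117 genes by the Benjamini-Hochberg method. The libraries are the replicates, so p-values measure how far class differences varied between them. They carry different time labels, so that spread includes any difference between the labels. Of the 87 genes 73 had enough counts, and 13 passed an adjusted p of 0.05 as lower in macrophages and 1 as higher. Over all genes tested, 12.6% were lower and 26.7% higher. The share of lower calls, 17.8%, was thus near that of all genes, while the share of higher calls, 1.37%, was below it. The estimates of 66 of the 73 lay below 0, with a median log2 fold change of -0.29, where the median over all genes was 0.01. Under library totals in place of TMM scaling the counts were 27 lower and 0 higher, with an all-gene median of -0.21 and calls over all genes of 636 lower and 699 higher (393 and 831 with TMM). DESeq2 gave 7 lower and 1 higher of the 73, beside 332 lower and 795 higher over all 3117 genes. Keeping all cells of the named clusters whatever their C1q gave 1 lower and 0 higher of 77, beside 143 lower and 265 higher over 4590 genes.

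**Figure D2:**
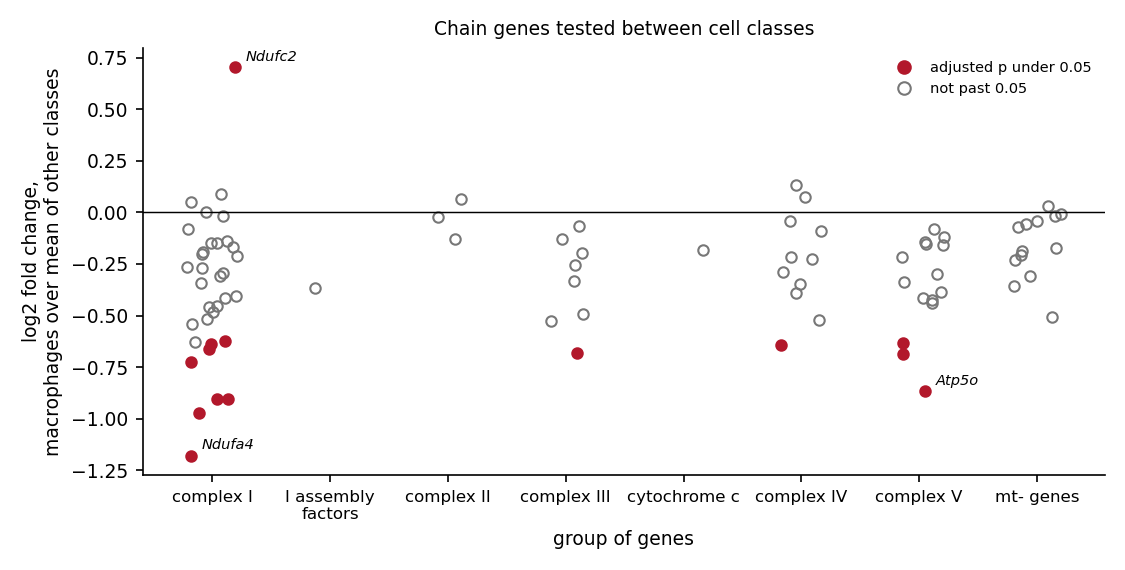
Log2 fold change of macrophages over the mean of B-, T- and dendritic-like cells (vertical axis) for the 73 nuclear chain genes tested, by complex, and the 13 mt- genes (horizontal axis). Filled points passed an adjusted p of 0.05 (edgeR); most points lie below 0, Ndufa4 is lowest at -1.18 and Ndufc2 highest at 0.70.

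Ndufa4 (Ensembl gene at chromosome 6, 11900292 to 11907497, GRCm38) had the largest difference. It stood at 185 CPM at 1 week and 120.0 at 12 weeks in macrophages. The values were 466 and 435 CPM in B-like cells, 496 and 412 in T-like cells, and 320.4 and 286 in dendritic-like cells. No other profile reached down to the macrophages. The log2 fold change was -1.18 (SE 0.23, edgeR Benjamini-Hochberg adjusted p = 6.01e-04). Against each class alone it was -1.48 for B-like, -1.18 for T-like and -0.88 for dendritic-like cells (SE 0.28, 0.31 and 0.28, edgeR adjusted p = 4.93e-04, 0.00606 and 0.0349). It was called in 16 of 16 alternative settings, with adjusted p from 6.23e-06 to 0.0477. A coarser clustering and leaving out dendritic-like cells gave the same fit. They are counted apart here and in the tallies of other genes tested in them. At 2000 UMIs per cell, 343 of 1187 macrophages (28.9%) at 1 week and 318 of 1591 at 12 weeks held a Ndufa4 UMI, against 57.7% and 54.2% of B-like cells and 6 of 8 and 18 of 34 T-like cells. Among dendritic-like cells it was 3 of 17 (17.6%, 95% exact binomial interval up to 43.4) at 1 week and 45.5% at 12 weeks, and the former goes against the CPM, so no order is read from these shares. Unthinned, 65.4% and 50.2% of macrophages and 70.0% to 90.0% of cells in the other profiles held one.

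In complex I, 8 of 34 genes tested were lower in macrophages (23.5%, against 12.6% of all genes tested), with Ndufa4 counted here by its symbol. Ndufs7, an iron-sulfur core subunit on the path of electrons to ubiquinone, stood at 31.3 and 27.8 CPM in macrophages and 31.4 to 106 CPM elsewhere, lowest in dendritic-like and highest in B-like cells (log2 fold change -0.97, SE 0.31, edgeR adjusted p = 0.0178). Ndufa11, an accessory subunit of the membrane arm, had 60.9 and 52.0 CPM against 81.7 to 330.4 (-0.91, SE 0.26, edgeR adjusted p = 0.00946). Ndufs4, an accessory subunit whose loss is known to cause a Leigh-like disease in mice, had 50.5 and 40.7 CPM against 51.6 to 165 (-0.90, SE 0.26, edgeR adjusted p = 0.0109). The accessory subunit genes Ndufa3 (-0.73) and Ndufb11 (-0.66) followed. Ndufs6 (-0.64) and Ndufb7 (-0.62), named after their values were seen, complete the set. The call held in 12 of 16 alternatives for Ndufa3, 12 of 15 for Ndufa11 and Ndufs4, 10 of 14 for Ndufs7, 8 of 16 for Ndufb7 and Ndufb11, and 7 of 16 for Ndufs6.

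Ndufc2, a small membrane-arm subunit of complex I, was the only gene of the 73 called higher. It had 158 and 153 CPM in macrophages, 114 and 79.9 in B-like, 132 and 124 in T-like and 113 and 95.2 in dendritic-like cells. In CPM, all 6 other values lay under both macrophage values. Its log2 fold change was 0.70 (SE 0.23, edgeR adjusted p = 0.0228), called in 10 of 15 alternatives and not past the threshold in 5, with adjusted p up to 0.128. At 2000 UMIs per cell, 26.5% and 25.5% of macrophages at 1 and 12 weeks held a Ndufc2 UMI. Among B-like cells it was 6 of 26 and 6 of 24, so these shares did not set macrophages apart from B-like cells. T-like cells gave 1 of 8 and 4 of 34, and dendritic-like cells 2 of 17 and 3 of 33.

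The region around the start site is shown for Ndufa4 and Ndufc2, the genes at either end of the class comparison, and for Ndufa11 and Ndufs4, called lower and carrying a motif. Sequences are RefSeq, GRCm38.p6, from 250 bases before to 50 after the start, written 5′ to 3′ on the gene's strand. Ndufa4 lies on the minus strand at chr6:11907401-11907700, Ndufc2 on the plus strand at chr7:97399753-97400052, Ndufa11 on the plus strand at chr17:56717512-56717811 and Ndufs4 on the minus strand at chr13:114388045-114388344. Capitals mark an NRF1 motif in Ndufa11, 60 bases before the start, and a YY1 motif in Ndufs4, 36 bases after it.
Ndufa4: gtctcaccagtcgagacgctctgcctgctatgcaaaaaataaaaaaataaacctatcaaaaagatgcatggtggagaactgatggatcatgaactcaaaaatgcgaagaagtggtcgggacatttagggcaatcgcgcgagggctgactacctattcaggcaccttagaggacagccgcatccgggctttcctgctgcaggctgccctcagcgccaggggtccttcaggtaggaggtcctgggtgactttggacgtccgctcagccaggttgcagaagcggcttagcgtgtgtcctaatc
Ndufc2: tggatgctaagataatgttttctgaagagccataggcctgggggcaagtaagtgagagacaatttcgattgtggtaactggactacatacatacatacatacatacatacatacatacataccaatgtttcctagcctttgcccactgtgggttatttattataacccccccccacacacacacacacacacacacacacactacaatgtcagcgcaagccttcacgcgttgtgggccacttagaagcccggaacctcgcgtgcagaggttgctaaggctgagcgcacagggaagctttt
Ndufa11: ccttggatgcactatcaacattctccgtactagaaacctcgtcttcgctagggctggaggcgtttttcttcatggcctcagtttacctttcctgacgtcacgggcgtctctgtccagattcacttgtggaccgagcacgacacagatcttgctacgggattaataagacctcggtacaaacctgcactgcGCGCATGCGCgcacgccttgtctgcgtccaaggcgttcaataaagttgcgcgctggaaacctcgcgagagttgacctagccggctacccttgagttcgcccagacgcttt
Ndufs4: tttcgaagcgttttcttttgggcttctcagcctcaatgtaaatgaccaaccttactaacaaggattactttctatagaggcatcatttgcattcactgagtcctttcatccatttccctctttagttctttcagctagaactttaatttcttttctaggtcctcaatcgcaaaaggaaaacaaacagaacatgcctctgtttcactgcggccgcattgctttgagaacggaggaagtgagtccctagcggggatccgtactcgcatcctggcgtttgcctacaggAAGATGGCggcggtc
NRF1, GABP (an ETS factor) and YY1 are transcription factors known to act on nuclear genes for mitochondrial proteins. Windows were found for 74 of the 87 genes (79 windows, as some genes have several starts) and searched on both strands. The NRF1 motif, spelled by the capitals in Ndufa11, stood in 7 windows (8.86%), against 0.971% of all 32851 windows of that length. They belong to Atp5g2, Atp5k, Cox6a1, Ndufa11, Ndufaf4, Ndufaf5 and Uqcrc1. The YY1 motif AAGATGGC stood in 11 (13.9% against 2.75%). Of these, Ndufa3, Ndufs4, Ndufs6, Ndufs7 and Atp5f1 were called lower against the mean of the other classes. Atp5j, Atp5j2, Ndufaf8, Ndufb8 and Ndufc1 were not called, and Ndufa9 was not tested. The ETS motif CCGGAAGT stood in 5 (6.33% against 3.89%): Atp5h, called lower, and Cox8a, Ndufs3, Uqcr11 and Uqcrh, not called in that comparison. Matches of different motifs overlapped in 0 windows. The windows of Ndufa4 and Ndufc2 hold none of these letter strings. These are matches of letters, not measured binding, and a link between motifs and class calls was not tested.

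Complex II had no call. Its catalytic flavoprotein gene Sdha stood at 45.0 and 41.3 CPM in macrophages and 25.1 to 79.9 elsewhere (log2 fold change -0.02, SE 0.29). The iron-sulfur subunit gene Sdhb had 68.8 and 58.4 CPM (-0.13, SE 0.27), and the membrane anchor gene Sdhd 61.0 and 44.8 (0.07, SE 0.31). The other anchor gene, Sdhc, had too few counts to be tested, at 29.5 and 23.2 CPM in macrophages and 5.17 to 33.0 elsewhere. Each end of that range was 1 UMI in its profile, so no order is read from it. In complex III, 1 of 8 genes was called lower (12.5%, against 12.6% of all genes tested). It was Uqcrfs1, the Rieske iron-sulfur protein, with 65.2 and 54.2 CPM in macrophages and 62.1 to 198 elsewhere (-0.68, SE 0.23, edgeR adjusted p = 0.025, called in 7 of 15 alternatives). Cycs had 134 and 125 CPM in macrophages and 124 to 254 elsewhere, highest in dendritic-like cells, and did not pass (-0.18, SE 0.24).

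In complex IV, 1 of 11 genes tested was called lower (9.09%, against 12.6% of all genes tested). Cox7b, a small membrane subunit, had 236 and 168 CPM in macrophages against 253 to 496 (log2 fold change -0.64, SE 0.23, edgeR adjusted p = 0.0312, called in 10 of 16 alternatives). Cox4i1, the most abundant, did not pass: 675 and 572 CPM in macrophages lay inside the range of 548 to 836 elsewhere (0.08, SE 0.23). Complex IV genes often come as isoforms of which 1 is broadly expressed and the other restricted to a tissue such as heart, muscle or lung. Here the broad forms carried nearly all UMIs. Cox4i2 stood at 0.263 and 0.438 CPM in macrophages and Cox7a1 at 1.05 in both libraries, against 254 and 189 for Cox7a2, and Cox8b had no UMI against 522 and 451 CPM for Cox8a. Cox5a and Cox5b, which encode different subunits, stood at 218 and 213 and at 228 and 208 CPM, Cox6b1 at 342 and 295 CPM and Cox7a2l, linked to supercomplexes of the chain, at 335 and 235 CPM.

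Cox6a2, the form known from heart and skeletal muscle, had 5.70 and 1.93 CPM in macrophages against 173 and 159 for Cox6a1. In the cells of endocrine-like clusters with few C1q UMIs, 25 and 7 in number, Cox6a2 stood at 67.7 and 141 CPM and Cox6a1 at 115 and 146. Macrophages with a Cox6a2 UMI were 15 of 1242 (1.21%) and 18 of 1619 (1.11%). The 62.1 CPM of Cox6a2 in B-like cells at 1 week were 12 UMIs in 1 cell. The testis form Cox6b2 stood at 4.30 and 4.99 CPM in macrophages, at 12.6 and 15.9 in dendritic-like cells and at 0 UMIs in B- and T-like cells. Neither gene had enough counts for the test.

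**Figure D3:**
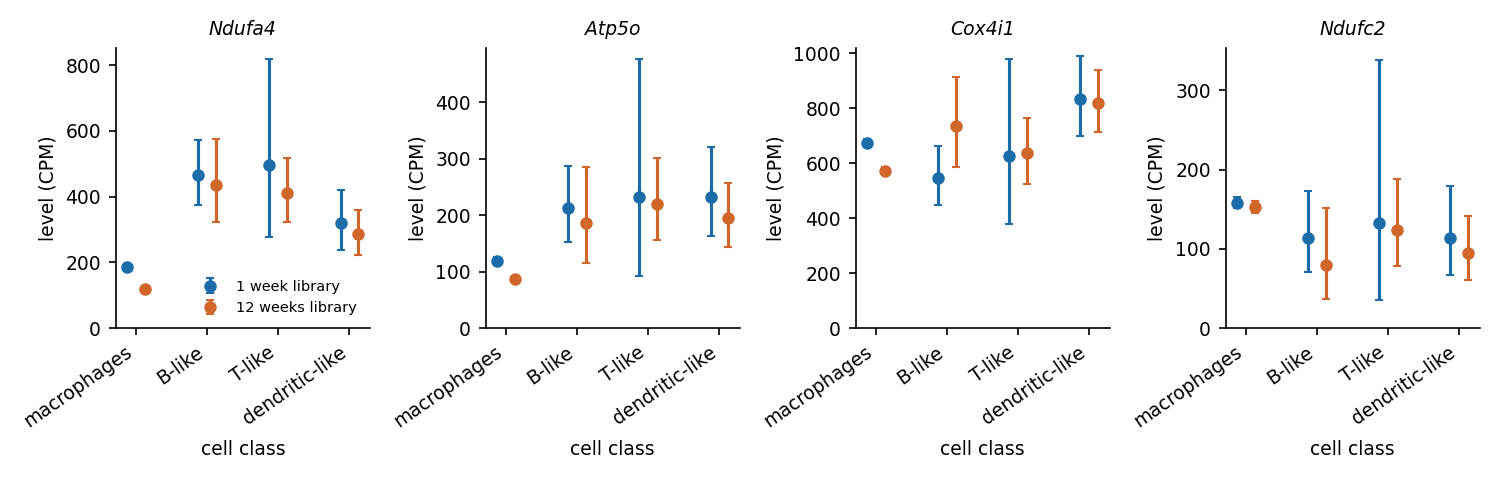
Level in CPM (vertical axes, starting at 0) of Ndufa4, Atp5o, Cox4i1 and Ndufc2 in each cell class (horizontal axes) of the 1-week (blue) and 12-week (orange) library, with 95% exact Poisson intervals. Ndufa4 and Atp5o lie lowest in macrophages in both libraries, Cox4i1 overlaps between classes, and Ndufc2 lies highest in macrophages with wide intervals in the small classes.

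In complex V, 3 of 15 genes tested were lower in macrophages (20%, against 12.6% of all genes tested). Atp5o, which encodes the protein that joins the stator stalk to the catalytic head, had 119 and 86.8 CPM in macrophages and 186 to 232 CPM elsewhere, with no overlap (log2 fold change -0.87, SE 0.23, edgeR adjusted p = 0.00576). Atp5f1, the stalk's subunit b, had 203 and 148 CPM against 275 to 346 (-0.69, SE 0.23, edgeR adjusted p = 0.0249). Atp5h, subunit d of the same stalk and named after its values were seen, had 323 and 259 CPM against 331 to 739 (-0.63, SE 0.24, edgeR adjusted p = 0.0451). The call was lost in 2 of 16 alternatives for Atp5o, 5 for Atp5f1 and 9 for Atp5h. The catalytic subunit gene Atp5b, with 274 and 209 CPM, did not pass (-0.08, SE 0.24). The 3 genes for the proton-carrying subunit c, Atp5g1, Atp5g2 and Atp5g3, stood at 224, 281 and 154 CPM at 1 week and 173, 248.5 and 113 at 12 weeks in macrophages, and none passed (-0.15, -0.12 and -0.38, SE 0.23, 0.22 and 0.22).

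Against single classes, 7 of the 73 genes were lower than in B-like cells (14.7% of all genes), 4 than in T-like cells (12.8%) and 6 than in dendritic-like cells (7.89%), and 0 were called higher in any of these pairs (23.9%, 22.2% and 12.4%). At an unadjusted p under 0.05 the higher counts were 1, 0 and 1. Ndufa4 was in all 3 lists. Ndufs7 passed the test against B-like cells (log2 fold change -1.45), with -1.15 against T-like and -0.31 against dendritic-like cells. Ndufa11 also passed against B-like cells (-1.24), with -0.97 and -0.51 against the other two. Ndufs4 passed against T-like cells (-1.17), with -0.87 against B-like and -0.68 against dendritic-like cells. Ndufa3, Uqcrfs1 and Cox7b passed against dendritic-like cells (-1.08, -1.01 and -0.87), with -0.39, -0.21 and -0.31 against B-like and -0.71, -0.82 and -0.75 against T-like cells. Atp5o was lower against B-like and dendritic-like cells (-0.87 and -0.93), and its difference from T-like cells was -0.80 (edgeR adjusted p = 0.0675). Differences between the pairs were not tested.

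The mt- genes did not order the classes in the same way. Their sum was 34391 and 31087 CPM in macrophages, 44657 and 61328 in B-like, 47680 and 46144 in T-like, and 38223 and 27252 in dendritic-like cells. Macrophages thus lay below B- and T-like cells but, at 12 weeks, above dendritic-like cells. Against the mean of the classes 0 of the 13 mt- genes were called by edgeR (12 estimates below 0, median -0.17, 1 lower and 0 higher at an unadjusted p under 0.05, DESeq2 0 lower). Against B-like cells alone 4 were lower (30.8%, against 14.7% of all genes tested), all complex I subunits: mt-Nd3 (-0.95), mt-Nd2 (-0.83), mt-Nd5 (-0.81) and mt-Nd1 (-0.75). Against dendritic-like cells 2 of 13 estimates were below 0. Per 100 mt- UMIs, macrophages held 38.2 and 34.8 nuclear chain UMIs, B-like cells 32.9 and 27.1, T-like cells 43.0 and 39.2, and dendritic-like cells 47.5 and 61.6. The cell filter caps mitochondrial reads at 10% and removed 35 and 11 cells that met the macrophage rule.

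Other mitochondrial genes were set beside these from lists chosen by function. Of 7 further assembly factors tested, 0 were higher and 1 lower in macrophages, Uqcc3 (-1.07). Of 5 regulators of mitochondrial DNA expression and biogenesis, 1 was lower: Tfam, which packages and transcribes mitochondrial DNA (-1.19). Of 7 tricarboxylic acid cycle genes 1 was lower, Suclg1 of succinyl-CoA ligase (-1.02). Mitochondrial ribosomal protein genes gave 5 lower and 0 higher of 34, with a median of -0.55 and Mrpl30 furthest (-1.34), and 13 lower against B-like cells alone. Of 6 carriers 2 were higher, led by Ucp2, a mitochondrial transporter abundant in macrophages (2.64), and 1 was lower, the ATP/ADP exchanger gene Slc25a4 (-0.98). Cytosolic ribosomal protein genes, for scale, gave 23 lower and 0 higher of 83, with a median of -0.49. All these values are log2 fold changes from the same edgeR fit. Over all genes tested, 12.6% were lower and 26.7% higher against the mean, and 14.7% were lower against B-like cells. The lower shares of assembly factors (14.3%), tricarboxylic acid cycle genes (14.3%) and mitochondrial ribosomal protein genes (14.7%) were thus near that of all genes. Against B-like cells the mitochondrial ribosomal share was 38.2%. With 5 to 7 genes tested in the small lists, 1 call weighs heavily.

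Among macrophages the nuclear chain level varied more between clusters than between the libraries. Over 23 clusters with at least 10 macrophages at 1 week it ran from 9531 to 21989 CPM with a median of 12324, and over 20 at 12 weeks from 8526 to 16559 with a median of 10947. They include the T-like cluster 18 (10 and 16 cells past the C1q minimum) and, at 1 week, the B-like cluster 19 (16 such cells). Cluster 0, whose leading genes include the heat shock genes Hspa1b and Hspa1a, was lowest in both libraries. Cluster 2 also has these among its leading genes but stood near the medians, at 11963 and 11132 CPM. Cluster 21, led by genes of DNA replication and mitosis such as Pclaf, Stmn1 and Top2a, was highest in both, with 45 and 10 macrophages. Its mt- level, 29828 and 33901 CPM, was within the range of the other clusters, so that it also held the most nuclear chain UMIs per 100 mt- UMIs (73.7 and 48.8). Clusters were built from the same cells, so these values are a description.

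Another high cluster came almost entirely from the 1-week library. Cluster 6 held 168 cells at 1 week and 4 at 12 weeks, with a median of 3550 UMIs. Its nuclear chain level was 19612 CPM, its mt- level 33136 CPM, and its mt-Co1 level of 3544 CPM was the lowest of the 23 clusters. With 1 library per label, such a cluster and its library cannot be told apart.

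**Figure D4:**
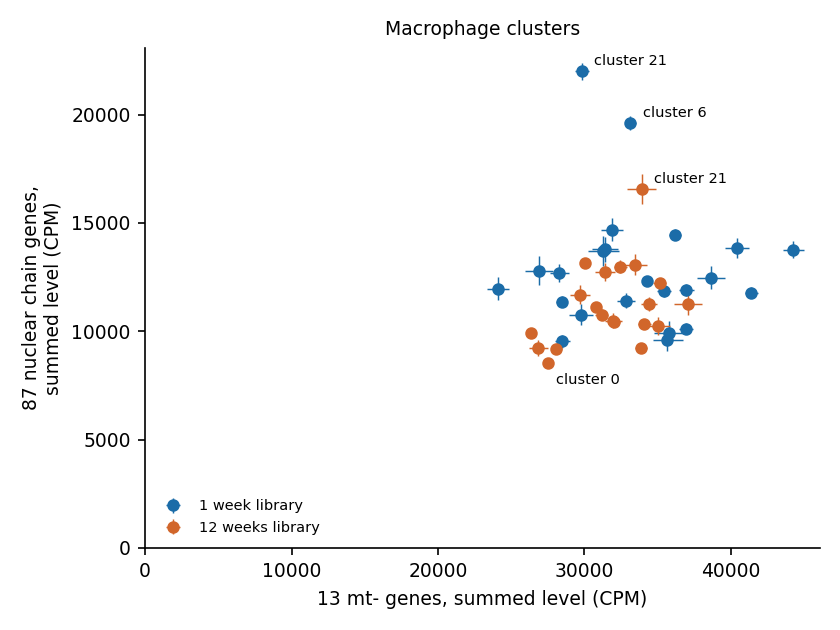
Summed nuclear chain level (vertical axis) against summed mt- level (horizontal axis), both in CPM, for macrophage clusters with at least 10 cells in the 1-week (blue) or 12-week (orange) library, with 95% exact Poisson intervals. Clusters 21 and 6 stand above the rest on the vertical axis at ordinary mt- levels, and cluster 0, named on its 12-week point, lies at the bottom.

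Cells with at least 3 UMIs over the cell cycle genes Mki67, Top2a, Cdk1, Ccnb1 and Ccnb2 gave values in the same direction. Top2a is also a leading gene of cluster 21, so this gate is not independent of that cluster. At 1 week, 62 macrophages passed the gate, with 16196 CPM of nuclear chain genes, against 12802 in the other 1180. At 12 weeks 37 had 12812 CPM against 10744 in 1582. Their mt- levels were 33917 against 34441 CPM at 1 week and 30869 against 31095 at 12 weeks. They were deeper (medians of 14033 and 9829 UMIs against 7255 and 6876), which the gate itself favours. At 2000 UMIs per cell, macrophages past this gate had medians of 30 and 25 nuclear chain UMIs and the others 24 and 21. Macrophages with 2 UMIs of the cycle genes, counted among the others, stood at 14208 CPM at 1 week (37 cells) and 10143 at 12 weeks (25 cells).

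Across macrophages at 2000 UMIs, the complexes rose and fell together weakly. Between pairs of complexes I, III, IV and V the rank correlation across cells ran from 0.27 to 0.43 at 1 week (1187 cells) and from 0.14 to 0.24 at 12 weeks (1591 cells). The nuclear chain and mt- sums were related by -0.11 and 0.08, and complex IV genes of the nuclear and mitochondrial genomes by -0.17 and 0.06. The nuclear chain sum followed cytosolic ribosomal protein genes at 0.37 and 0.39. The cells of a library share their pool of mice and their depth, and counts per cell are small, so the values are descriptions and the weak ones no finding.

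Between the time labels, the nuclear chain level of macrophages was lower in the 12-week library for nearly every gene and by a modest amount. With 1 library per label there is no test, and ratios carry counting intervals only. The log2 ratio of 12 weeks over 1 week was -0.28 for the sum (95% exact conditional interval -0.29 to -0.27). It was -0.27 for complex I, -0.28 for complex II, -0.32 for complex III, -0.25 for complex IV, -0.31 for complex V and -0.10 for Cycs (-0.21 to 0.00). The mt- sum stood at -0.15, cytosolic ribosomal protein genes at -0.23 and islet hormone transcripts at -1.77. Leaving out cluster 6 gave -0.23, and leaving hormone UMIs out of the totals gave -0.30.

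Of the 80 nuclear chain genes with at least 200 macrophage UMIs, 77 were lower at 12 weeks, against 55.3% of 6273 genes at that depth. Cytosolic ribosomal protein genes moved likewise, with 81 of 90 lower and a median of -0.30 (-0.29 for the nuclear chain genes), so the shift was not particular to the chain. None passed a 2-fold ratio in either direction, as 1.39% of all genes did downward and 1.04% upward. Among the largest ratios were those of Ndufa12 (-0.70), the assembly factor gene Ndufaf3 (-0.66), Ndufa4 (-0.63) and Ndufb11 (-0.56). Ndufa12 went from 95.1 to 58.4 CPM and Ndufa4 from 185 to 120.0. The 3 higher at 12 weeks were Ndufa3 (0.22), Atp5k (0.11) and Ndufs8 (0.04). Of the 13 mt- genes 8 were lower, and mt-Co1 stood at 5772 and 5838 CPM. In 18 of the 20 clusters with at least 10 macrophages in both libraries the nuclear chain level was lower at 12 weeks, with a median log2 ratio of -0.17. Cluster 11 and the T-like cluster 18 went the other way. The level of cytosolic ribosomal protein genes was lower in all 20 clusters, with a median of -0.23.

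**Figure D5:**
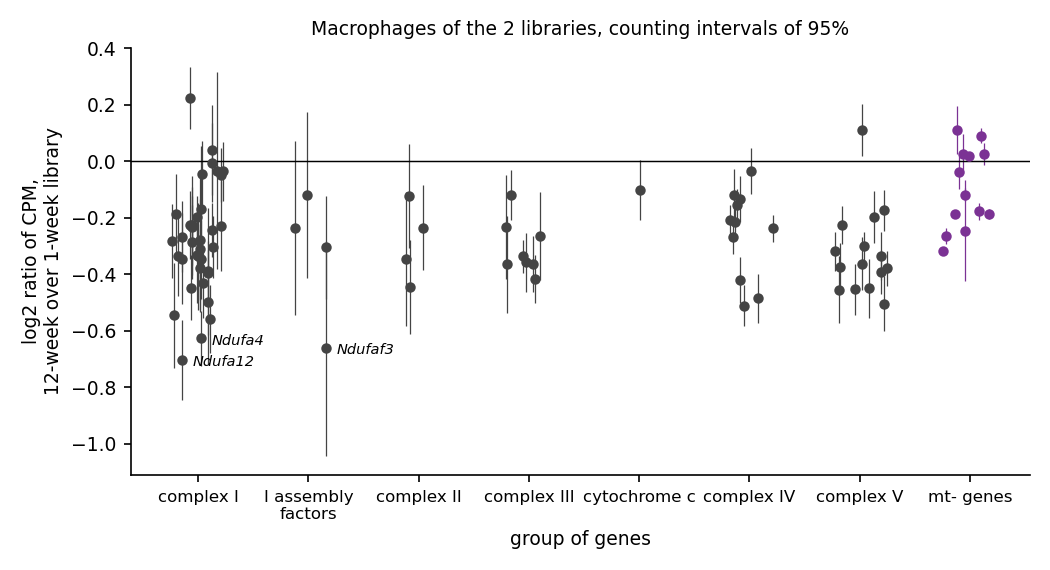
Log2 ratio of CPM in macrophages, 12-week over 1-week library (vertical axis), for nuclear chain genes with at least 200 UMIs by complex and for the 13 mt- genes (horizontal axis), with 95% exact counting intervals. Nearly all nuclear points lie below 0, from -0.70 for Ndufa12 to 0.22 for Ndufa3, while the mt- genes scatter on both sides.

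The class difference can also be read within each library. The median log2 difference of the 73 genes between macrophages and the mean of the other classes was -0.19 at 1 week, with 48 below 0, and -0.37 at 12 weeks, with 68 below 0. The all-gene medians of these differences were 0.20 and 0.01. Ndufa4 differed by -0.94 and -1.36, Atp5o by -0.69 and -0.94, and Ndufc2 by 0.63 and 0.89. Ndufs7 differed by -0.20 at 1 week and -1.25 at 12 weeks, so that most of its difference came from the 12-week library. Of the 87 genes, 6 (Atp5c1, Atp5k, Atp5l, Cycs, Ndufab1 and Uqcrh) have pseudogenes named after them in the annotation, and their counts are less certain. Pseudogenes under other names were not searched for, so counts of the other genes may be affected too.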

How the data were processed

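The deposited files hold unnormalised UMI counts. The authors made them with Cell Ranger on mm10, per the submitters' processing notes, in version 3.1.0, per the file headers. The rule by which barcodes were called cells is not stated there. Barcodes with at least 500 genes, 1000 UMIs and at most 10% mitochondrial UMIs were kept, and doublets called by Scrublet (expected rate 0.02) were removed. Cells were clustered (scanpy 1.11.5, 2000 variable genes per library, 30 components, 15 neighbours, Leiden). Resolution 2 replaced the planned resolution of 1, at which dendritic-like cells and neutrophils shared a cluster. A cluster took a class name with at least 3 markers among its 30 leading genes.

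UMIs were summed per class and library and tested with edgeR 4.0.16 (R 4.3.3, TMM, filterByExpr, library block, 3 residual degrees of freedom), with DESeq2 1.42.0 as an alternative. P-values measure only the spread between these 2 pools, which may be technical. Genes and lists were chosen with earlier results of these data known. Named genes were up to 10 called in each direction by size of change, the most abundant of each complex, isoform sets, the 5 largest time ratios, the mt- genes and the leading called gene of each list. A gene that this rule names is not reported here. Gene positions are from GENCODE M21.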

Additional observations from a re-analysis of the deposited data

How the results depend on the processing

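No setting reversed a called direction. Counts of nuclear chain genes lower (higher) in macrophages than in the mean of the other classes, 13 (1) as reported, were 27 (0) with library totals, 8 with RLE factors, 7 with DESeq2, 1 without a filter on low counts, 1 (0) with all cells of the named clusters whatever their C1q, 6 (0) with a marker gate, 6 (0) at resolution 1 and without dendritic-like cells (the same cells and fit), and 8 (0) at 2000 UMIs. Against B-like cells, 7 as reported, they were 2 unfiltered, 3 with DESeq2, the gate and thinning, and 1 with all cells. Against T-like cells, 4 as reported, they were 22 with library totals, 9 with thinning or without B-like cells, 2 with DESeq2 and the gate, and 0 unfiltered or with all cells. Against dendritic-like cells, 6 as reported, they were 11 with library totals, 3 with the gate and thinning, and 0 unfiltered or with all cells, and 1 gene was higher without B-like cells. For the mt- genes, 0 as reported against the mean, 3 were lower with library totals and 2 without T-like cells. Against B-like cells, 4 as reported, 7 were lower with library totals, 8 without T-like cells, 2 with up to 20% mitochondrial UMIs, 1 at resolution 1 and without dendritic-like cells, and 0 unfiltered, with all cells and with the gate. Against T-like cells 3 were lower with library totals and 1 with thinning, and against dendritic-like cells 1 was higher with thinning and without B-like cells. Over all genes the lower calls against the mean moved too, from 393 of 3117 to 636 with library totals, 308 with RLE factors, 332 with DESeq2, 209 of 17757 unfiltered, 143 of 4590 with all cells, 232 of 2660 with the gate, 381 of 2885 at resolution 1 and 149 of 1074 with thinning, where 44 of the nuclear chain genes were tested. All-gene counts by setting were made for the contrast against the mean only. In the main setting 14.7%, 12.8% and 7.89% of all genes were lower against B-, T- and dendritic-like cells. The shifts in single pairs are therefore not read as particular to the nuclear chain or mt- genes. The cause of the shifts was not tested.

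The median log2 difference of the genes tested, -0.29, was -0.53 with library totals and -0.019 unfiltered (all genes 0.01, -0.21 and 1.20), and -0.19 and -0.37 with either library left out. No count could be tested with a library left out, as no residual degrees of freedom remain. With no replicate block, 12 genes were lower and 1 higher, and the mt- counts were the same (0 against the mean and 4 against B-like cells). The log2 time ratio of the nuclear chain sum was -0.29 without cells of clusters named otherwise, -0.23 without cluster 6 and -0.30 without hormone UMIs. That of the mt- sum, -0.15 as reported, was -0.16 with thinning, -0.14 at a C1q minimum of 10, -0.13 without cells of clusters named otherwise and -0.17 without hormone UMIs. The settings without cluster 6, without hormone UMIs and, for the counts, with called doublets kept (12 lower) were chosen after seeing the data, as was resolution 2 as the main clustering. The small B-, T- and dendritic-like classes, above all 10 T-like cells at 1 week, limit the precision of every class comparison.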

Other observations

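AA467197 encodes a small mitochondrial protein related to the product of Ndufa4 and known to take its place in complex IV in inflamed cells. It is outside the name rule, and it was chosen after its values were seen. It stood at 147 and 173 CPM in macrophages, 421 and 289.6 in dendritic-like cells, 36.2 and 17.8 in B-like cells, and 0 and 90.3 in T-like cells, where the 0 rests on 30264 UMIs. Unthinned, it was seen in 38.9% and 41.8% of macrophages and in 9 of 17 and 17 of 33 dendritic-like cells. In B-like cells it was seen in 2 of 26 and 1 of 29, and in T-like cells in 0 of 10 and 3 of 40, so those levels rest on few cells. Its log2 fold change against B-like cells was 2.53, against T-like cells 1.49 and against dendritic-like cells -0.99 (SE 0.54, 0.50 and 0.33, edgeR adjusted p = 0.00131, 0.0276 and 0.0418). Ndufa4 was lower in macrophages than in each of these classes.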
